A study of Homo sapiens with 24 samples.

Results

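The genes of fatty acid synthesis and desaturation described here were 10 of the 60675 genes counted: SREBF1, ACLY, ACACA, FASN, SCD, ELOVL5, ELOVL6, FADS1, FADS2 and ACSL3. They were chosen by name for their known role in making fatty acids, with earlier results of these data known. All 10 were matched to an Ensembl identifier and passed the filter on low counts in both lines. RNA sequencing covered 24 libraries of MDA-MB-231 and MDA-MB-436, established lines from triple-negative breast cancers, which lack the oestrogen and progesterone receptors and amplified HER2. Each line gave 4 groups of 3 libraries: cells with a non-targeting short hairpin RNA (shRNA), cells with an shRNA labelled as directed at MDM2, cells given the solvent DMSO, and cells given YX-2-30, an MDM2 PROTAC. MDM2 attaches ubiquitin to other proteins, which sends them to degradation, and a PROTAC is a linked molecule that makes a ubiquitin ligase act on a chosen target, here MDM2. All groups grew in the same serum-containing medium, and the labels give neither dose and duration of the PROTAC nor hairpin sequences. Each treatment was set against its own control, which asks how transcript levels of these genes differ when MDM2 is targeted.

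Fatty acids are built in the cytosol from acetyl-CoA, which ACLY splits from citrate. ACACA turns acetyl-CoA into malonyl-CoA, FASN joins these units into palmitate, ELOVL6 and ELOVL5 lengthen chains, SCD places a double bond in saturated chains, FADS1 and FADS2 place double bonds in polyunsaturated chains, and ACSL3 joins finished acids to coenzyme A. SREBF1 encodes SREBP-1, a membrane-bound transcription factor that is released by cleavage and raises transcription of this pathway. Many tumour cells make their own fatty acids for membranes even where serum supplies lipids.

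In total counts the libraries ranged from 33.4 to 174.7 M (M, 1e6 counts), with a median of 64.0 M. No 2 libraries held identical values, and whether the 3 libraries of a group are separate cultures is not stated, so p-values measure only the spread between these libraries. Of the epithelial markers, KRT8 lay between 311 and 375 CPM (normalised counts per 1e6 counts) in MDA-MB-231 and between 205 and 665 CPM in MDA-MB-436, whereas CDH1 stayed at or below 0.650 CPM in all 24 libraries. Of the mesenchymal markers, VIM lay between 2763 and 6197 CPM in MDA-MB-231 and between 593 and 996 CPM in MDA-MB-436. CDH2 stayed at or below 0.626 CPM in MDA-MB-231 and lay between 98.9 and 165 CPM in MDA-MB-436. ZEB1 and FN1 were at or above 9.49 CPM in every library of both lines. ESR1 and PGR stayed at or below 0.517 CPM. MDM2 RNA was at 20.0, 22.9 and 11.4 CPM with non-targeting shRNA and 24.8, 23.8 and 30.9 CPM with the MDM2 shRNA label in MDA-MB-231, and at 21.5, 29.9 and 24.3 CPM and 14.7, 28.0 and 26.8 CPM in MDA-MB-436. No change was called (log2 0.55 ± 0.24 and -0.11 ± 0.22, edgeR adjusted p = 0.137 and 0.78), so these groups are named by their label. With the PROTAC the log2 changes of MDM2 RNA were 0.26 ± 0.24 and -0.61 ± 0.22 (edgeR adjusted p = 0.513 and 0.0573). MDM2 protein was not analysed here.

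Promoter sequence of the genes was read from RefSeq (GRCh38.p14), where 9 of the 10 genes had 13 windows of 300 bases, each from 250 bases before a transcription start to 50 after it. FASN was not matched. The 250 bases before the start are printed for 3 genes whose transcripts moved differently: SCD (chr10:100346983-100347232, plus strand), which fell in both lines, ACLY (chr17:41919023-41919272, minus strand, from 1 of its 2 windows), which fell in MDA-MB-436 and was not called in MDA-MB-231, and SREBF1 (chr17:17836987-17837236, minus strand), whose fall did not differ measurably between the lines. Capitals mark CCAAT, the NF-Y motif, and GGGCGG, the Sp1 motif, on either strand, so that they also appear as ATTGG and CCGCCC.
SCD: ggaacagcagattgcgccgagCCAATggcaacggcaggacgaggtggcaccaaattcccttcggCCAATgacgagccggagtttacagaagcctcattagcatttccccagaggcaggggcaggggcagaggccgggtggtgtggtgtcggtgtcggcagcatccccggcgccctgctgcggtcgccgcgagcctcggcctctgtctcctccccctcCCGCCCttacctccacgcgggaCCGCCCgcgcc
ACLY: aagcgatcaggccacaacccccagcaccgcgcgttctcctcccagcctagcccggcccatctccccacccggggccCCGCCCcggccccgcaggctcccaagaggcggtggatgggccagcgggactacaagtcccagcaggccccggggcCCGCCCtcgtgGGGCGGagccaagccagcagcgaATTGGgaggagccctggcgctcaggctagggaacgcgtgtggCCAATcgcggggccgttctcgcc
SREBF1: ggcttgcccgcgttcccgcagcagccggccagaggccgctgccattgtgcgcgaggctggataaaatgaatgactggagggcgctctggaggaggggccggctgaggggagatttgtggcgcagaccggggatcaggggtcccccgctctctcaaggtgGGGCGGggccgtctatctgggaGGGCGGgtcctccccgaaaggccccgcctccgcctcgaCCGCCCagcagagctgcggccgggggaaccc
SCD held CCAAT beginning 229 and 186 bases before the start, and ACLY held it 65 and 23 bases before the start, while the printed stretch of SREBF1 held only GGGCGG, 91, 69 and 31 bases before. Over the 13 windows, searched on both strands, CCAAT was in 8 (6 genes) against 34.6% of all 35116 windows, and GGGCGG was in 10 (8 genes) against 45.0%. The 2 windows of ACLY overlap and hold the same CCAAT and GGGCGG sites, so windows of a gene are not independent and these sites count in both. The E-box CACGTG was in 1 window, of ELOVL5, against 7.26% of all windows. A core of the SREBP site, TCACNCCAC, was in 0 of the 13 windows and in 1.13% of all windows, which says only that these letters are not in these stretches. Matches to GGGCGG can overlap each other, as they did in ACACA. A match is a description of the sequence, not a measured binding site.

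The 10 genes fell more widely in MDA-MB-436 than in MDA-MB-231. In MDA-MB-231, 6 of the 10 fell and 0 rose in the libraries labelled MDM2 shRNA, where 11.6% of the 20675 genes tested fell and 11.1% rose, and 6 fell and 1 rose with the PROTAC, where 11.5% fell and 11.1% rose. In MDA-MB-436, 9 of the 10 fell and 0 rose in the libraries labelled MDM2 shRNA, where 14.4% of the 22663 genes tested fell and 16.0% rose, and 9 fell and 0 rose with the PROTAC, where 15.1% fell and 17.3% rose. A gene is called here at an adjusted p under 0.05 in edgeR's quasi-likelihood test, adjusted over all genes tested in the line. In either direction 22.7, 22.6, 30.4 and 32.4% of genes were called. The median log2 change of the 10 was -0.32 and -0.29 in MDA-MB-231 and -0.91 and -0.95 in MDA-MB-436, beside 0.01, -0.01, 0.04 and 0.04 over all genes. The treated libraries were all below their controls for 7 genes and 6 genes in MDA-MB-231 (19.3 and 19.9% of all genes) and for 10 and 9 genes in MDA-MB-436 (25.2 and 20.3%). They were all above for 1, 2, 0 and 0 genes, against 19.7, 19.2, 26.1 and 21.3% of all genes. SREBF1, ACACA, FASN, SCD, ELOVL6 and FADS2 fell in all 4 comparisons, ACLY, ELOVL5 and FADS1 fell in both comparisons of MDA-MB-436, and ACSL3 was called in 0.

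Summed over the 10 genes, the mean level dropped from 3698 to 2931 CPM under the MDM2 shRNA label and from 3618 to 2960.2 CPM with the PROTAC in MDA-MB-231, which is 0.793 and 0.818 of the control sum. The MDA-MB-436 sum dropped from 2809 to 1407 CPM and from 2825 to 1356 CPM, which is 0.501 and 0.48 of the control sum. In bulk RNA, fewer cells with these transcripts and less transcript per cell cannot be told apart.

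**Figure D1:**
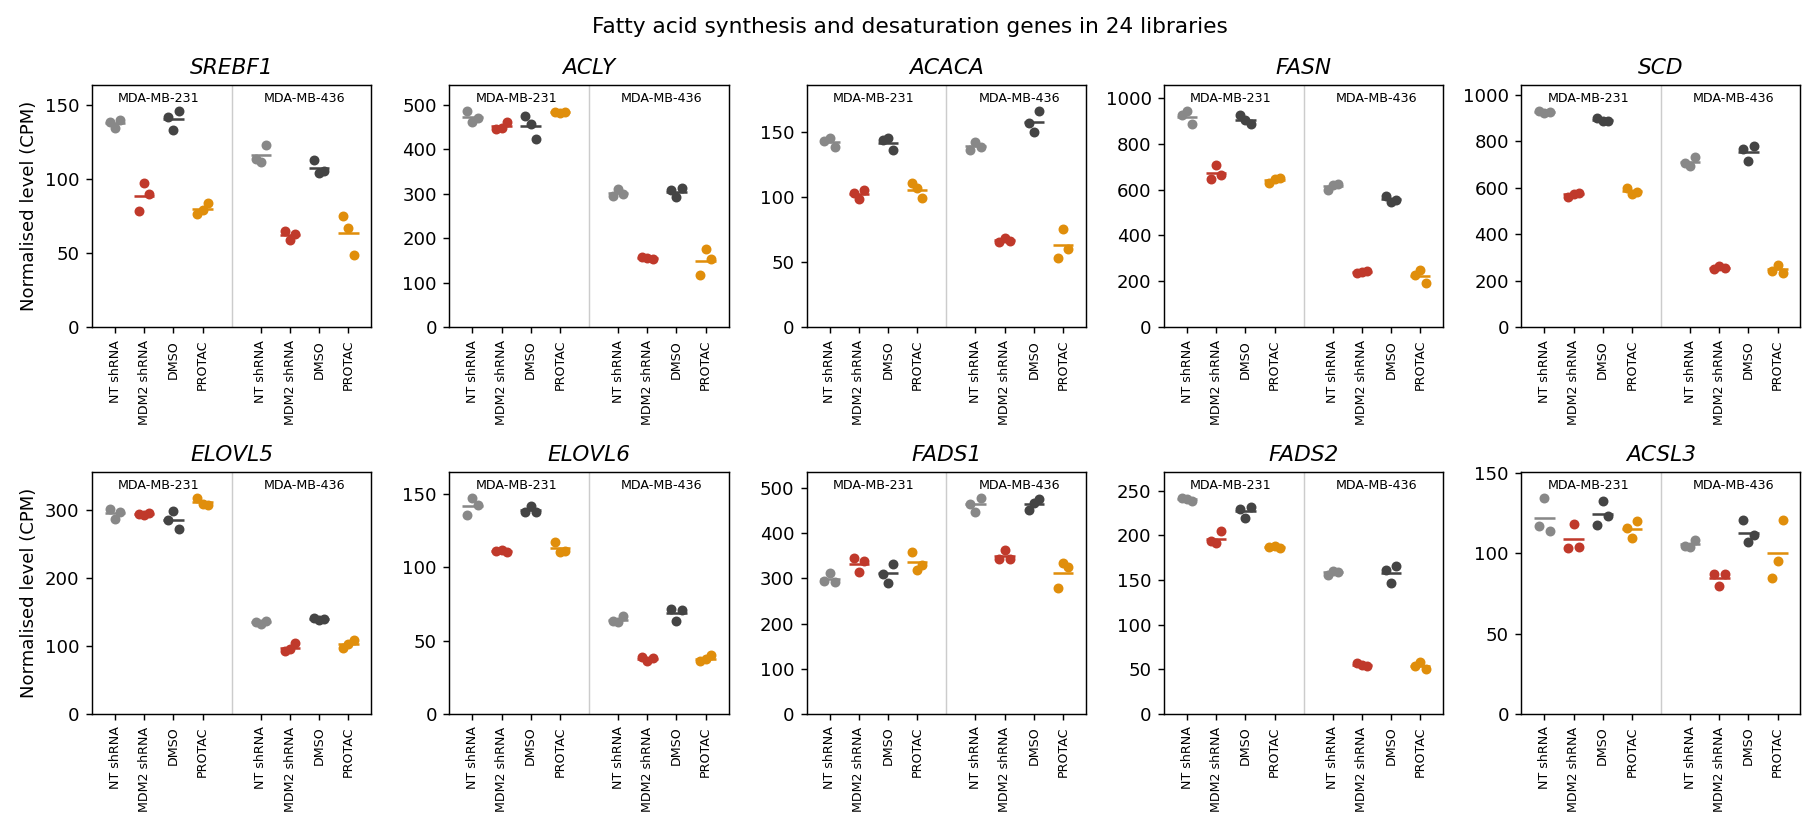
Normalised level of each of the 10 genes in counts per 1e6 counts (CPM) on a linear axis from 0, 1 point per library and a bar at the mean of 3, with MDA-MB-231 at the left and MDA-MB-436 at the right of each panel. In MDA-MB-436 the treated points of SREBF1, ACLY, ACACA, FASN, SCD, ELOVL5, ELOVL6, FADS1 and FADS2 lie below all control points, and in MDA-MB-231 those of SREBF1, ACACA, FASN, SCD, ELOVL6 and FADS2 do.

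Among markers, the summed epithelial list (KRT8, KRT18, KRT19, EPCAM and CDH1, of which 3 had a mean of at least 1 CPM in MDA-MB-436) also ran lower in treated MDA-MB-436, at 409 to 572 CPM against 827 to 1142 CPM in controls, while it was 901 to 954 CPM against 917 to 992 CPM in MDA-MB-231. The lower MDA-MB-436 sum was that of KRT8 and KRT18, while EPCAM was higher in each treated library, with means of 4.21 and 3.88 CPM in controls and of 6.23 and 5.92 CPM in treated ones. The summed mesenchymal list ran lower in treated libraries of both lines, at 3143 to 3458 CPM against 4980.4 to 6556 CPM in MDA-MB-231 and at 760 to 905 CPM against 1022 to 1241 CPM in MDA-MB-436. Most of that sum was VIM, and FN1 went the other way in MDA-MB-231, with means of 258 and 239.8 CPM in controls and of 319 and 325 CPM in treated libraries, which did not overlap. In MDA-MB-436 the list of 7 adipocyte markers went from between 6.48 and 8.01 CPM in controls to between 19.4 and 23.8 CPM in treated libraries. That was through LPL, the lipoprotein lipase, which had 2.31, 3.17 and 2.25 CPM with non-targeting shRNA and 20.7, 18.1 and 20.0 CPM with the MDM2 shRNA label, while the defining adipocyte genes ADIPOQ, LEP and FABP4 stayed at or below 0.0814 CPM. LIPE, of the same list, went the other way without overlap in MDA-MB-436. Its means there were 4.48 and 4.16 CPM in controls and 2.84 and 2.24 CPM in treated libraries, and it was also lower in treated MDA-MB-231 libraries. The summed leukocyte list lay between 4.41 and 14.6 CPM and the endothelial list between 2.39 and 11.3 CPM over all libraries, and both ran lower in treated MDA-MB-436 libraries (4.65 to 7.60 against 7.99 to 14.6 CPM, and 2.39 to 5.16 against 6.09 to 9.23 CPM). Hepatocyte markers summed to at most 0.905 CPM. Luminal breast markers summed higher in every treated library than in any control of its line, at 13.4 to 17.9 CPM against 9.92 to 12.8 CPM in MDA-MB-231 and at 12.24 to 14.9 CPM against 7.49 to 12.16 CPM in MDA-MB-436. In MDA-MB-436 GATA3 had means of 1.117 and 0.833 CPM in controls (non-targeting shRNA, DMSO) and of 4.23 and 4.41 CPM in treated libraries (MDM2 shRNA label, PROTAC). FOXA1 did not follow there, with means of 9.11 and 8.01 CPM in controls and of 8.66 and 8.71 CPM in treated libraries. In MDA-MB-231 FOXA1 had means of 4.52 and 4.54 CPM in controls and of 7.40 and 7.23 CPM in treated libraries, without overlap, while treated and control libraries overlapped for GATA3. PGR and ESR1 stayed at or below 0.517 CPM in both lines. The part of these markers in the changes of the 10 genes was not tested.

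SREBF1 (ENSG00000072310, chromosome 17, 17810399 to 17837002), the transcription factor of the pathway, fell in all 4 comparisons. In MDA-MB-231 its level was 138, 134 and 139.9 CPM in the 3 libraries with non-targeting shRNA and 78.5, 97.3 and 89.8 CPM with the MDM2 shRNA label. It was 142, 133 and 146 CPM with DMSO and 76.5, 78.8 and 83.4 CPM with the PROTAC. Every treated library was below every control. The log2 changes were -0.64 ± 0.072 (standard error, edgeR adjusted p = 8.77e-05) and -0.82 ± 0.072 (edgeR adjusted p = 1.44e-05), or 0.643 of the control level (95% interval 0.576 to 0.718) and 0.566 of the control level (95% interval 0.507 to 0.633). In MDA-MB-436 the level was 113, 111 and 123 CPM with non-targeting shRNA, 64.8, 58.8 and 63.0 CPM with the MDM2 shRNA label, 113, 104 and 105 CPM with DMSO and 75.0, 67.1 and 48.7 CPM with the PROTAC. The groups did not overlap, and the PROTAC libraries were spread most widely. The log2 changes were -0.88 ± 0.11 (edgeR adjusted p = 0.000119) and -0.76 ± 0.11 (edgeR adjusted p = 0.0003). SREBF1 shares 556 exon bases, 6.9% of its exons, with RAI1 on the other strand, which itself had log2 changes of -0.17, -0.21, -0.48 and -0.46, and whether counting used strand is unknown.

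ACLY (ENSG00000131473, chromosome 17, 41866908 to 41930542), which makes cytosolic acetyl-CoA, fell in MDA-MB-436 and did not pass the test in MDA-MB-231. Its MDA-MB-436 level was 295, 309.9 and 299.6 CPM with non-targeting shRNA and 158, 156 and 153 CPM with the MDM2 shRNA label, and 308, 292 and 312 CPM with DMSO and 117, 176 and 154 CPM with the PROTAC. Treated libraries held 0.522 of the control level (95% interval 0.438 to 0.622) and 0.489 of the control level (95% interval 0.41 to 0.583), with log2 changes of -0.94 ± 0.11 (edgeR adjusted p = 8.94e-05) and -1.03 ± 0.12 (edgeR adjusted p = 4.18e-05). The MDA-MB-231 level was 486, 462 and 471 CPM against 446, 448 and 461 CPM with the shRNAs, and 474, 457 and 424 CPM against 485, 483 and 484 CPM with DMSO and the PROTAC. These sets did not overlap either, with log2 changes of -0.07 ± 0.042 (edgeR adjusted p = 0.311) and 0.10 ± 0.042 (edgeR adjusted p = 0.125). The PROTAC difference passed as a rise without scaling between libraries and without DMSO replicate 1 (edgeR adjusted p = 0.00799 and 0.0494).

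ACACA (ENSG00000278540, chromosome 17, 37084988 to 37406818), the acetyl-CoA carboxylase that commits carbon to fatty acids, fell in all 4 comparisons. MDA-MB-231 went from 143, 146 and 139 CPM to 103, 98.7 and 106 CPM under the MDM2 shRNA label, and from 144, 146 and 137 CPM to 111, 107 and 99.1 CPM with the PROTAC. MDA-MB-436 went from 136, 143 and 139 CPM to 65.9, 68.7 and 66.3 CPM and from 157, 150.1 and 167 CPM to 53.5, 75.7 and 60.2 CPM. No treated library reached a control. The log2 changes were -0.48 ± 0.05 and -0.43 ± 0.05 in MDA-MB-231 (edgeR adjusted p = 5.05e-05 and 0.000114) and -1.04 ± 0.10 and -1.33 ± 0.10 in MDA-MB-436 (edgeR adjusted p = 1.6e-05 and 2.69e-06).

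FASN (ENSG00000169710, chromosome 17, 82078333 to 82098332), the synthase that builds palmitate, stood at 926, 943 and 886 CPM with non-targeting shRNA in MDA-MB-231 and at 644, 709 and 664 CPM with the MDM2 shRNA label. With DMSO it was at 924, 905 and 887 CPM and with the PROTAC at 629, 647 and 649 CPM. MDA-MB-436 started lower, at 599, 620.3 and 623 CPM and 571, 546 and 557 CPM in the same controls, and came to 237, 242 and 245 CPM and 228, 248 and 193 CPM. Groups were apart in every comparison. FASN fell to 0.732 of the control level (95% interval 0.689 to 0.779) and 0.708 of the control level (95% interval 0.666 to 0.753) in MDA-MB-231 (edgeR adjusted p = 1.72e-05 and 8.25e-06). In MDA-MB-436 it fell to 0.398 of the control level (95% interval 0.36 to 0.439) and 0.398 of the control level (95% interval 0.361 to 0.439) (edgeR adjusted p = 1.17e-07 and 1.15e-07), log2 changes of -1.33 ± 0.065 and -1.33 ± 0.065.

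SCD (ENSG00000099194, chromosome 10, 100347124 to 100364834), the stearoyl-CoA desaturase that makes monounsaturated fatty acids, had the highest level per exon length of the 10 genes and the lowest log2 change with the PROTAC in MDA-MB-436. Its level in MDA-MB-436 dropped from 706, 693 and 732 CPM to 251, 263 and 255 CPM under the MDM2 shRNA label and from 767, 716 and 779 CPM to 243, 269.6 and 233 CPM with the PROTAC. The MDA-MB-231 level dropped from 932, 924 and 926 CPM to 562, 575 and 580.1 CPM and from 899, 889 and 887 CPM to 601, 575 and 581 CPM. Replicates lay close together, and treated and control libraries were far apart in all 4 comparisons. The levels fell to 0.365 of the control level (95% interval 0.336 to 0.397) and 0.328 of the control level (95% interval 0.302 to 0.357) in MDA-MB-436 (edgeR adjusted p = 2.27e-08 and 1.02e-08). They fell to 0.617 of the control level (95% interval 0.592 to 0.644) and 0.656 of the control level (95% interval 0.629 to 0.684) in MDA-MB-231 (edgeR adjusted p = 5.03e-08 and 1.5e-07). Of the genes with a mean CPM of 10 or more, 0.506 and 0.301% had as low a log2 change in MDA-MB-436, and 3.66 and 4.78% in MDA-MB-231.

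FADS2 (ENSG00000134824, chromosome 11, 61792980 to 61867354), a desaturase at the entry to the polyunsaturated pathway, fell further in MDA-MB-436 than in MDA-MB-231. The MDA-MB-231 libraries held 242, 241 and 238 CPM with non-targeting shRNA against 194, 191 and 204 CPM under the MDM2 shRNA label, and 229.8, 219 and 232 CPM with DMSO against 187, 188 and 186 CPM with the PROTAC. Those of MDA-MB-436 held 156, 160.4 and 159 CPM against 57.1, 54.9 and 53.6 CPM and 161, 146 and 165 CPM against 53.1, 58.2 and 50.5 CPM. The groups were apart in every comparison. FADS2 thus had log2 changes of -0.29 ± 0.037 and -0.28 ± 0.037 in MDA-MB-231 (edgeR adjusted p = 0.000206 and 0.000273) and -1.50 ± 0.064 and -1.55 ± 0.064 in MDA-MB-436 (edgeR adjusted p = 4.46e-08 and 3.46e-08). As low a change was found in 15.4 and 15.9% of genes at or above a mean of 10 CPM in MDA-MB-231, and in 0.418 and 0.438% in MDA-MB-436.

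FADS1 (ENSG00000149485, chromosome 11, 61799625 to 61829318), the desaturase that acts after FADS2, lies within the FADS2 annotation on the other strand and moved less. Its MDA-MB-436 level dropped from 465, 447 and 479 CPM to 342, 362 and 343 CPM under the MDM2 shRNA label and from 451, 467 and 476 CPM to 279.6, 334 and 325 CPM with the PROTAC, with every treated library below the controls. These were log2 changes of -0.39 ± 0.071 (edgeR adjusted p = 0.0014) and -0.57 ± 0.072 (edgeR adjusted p = 9.32e-05). In MDA-MB-231 it was at 293, 313 and 292 CPM and 345, 314 and 339 CPM with the shRNAs, and at 309.6, 291 and 333 CPM and 359.5, 319 and 329 CPM with DMSO and the PROTAC. The PROTAC libraries overlapped their controls. Here the log2 changes were 0.15 ± 0.062 and 0.11 ± 0.062, and neither passed (edgeR adjusted p = 0.11 and 0.252), though both did without scaling between libraries (0.25 and 0.19, edgeR adjusted p = 0.0101 and 0.0381). The FADS1 and FADS2 annotations share 490 exon bases, 4.8% of FADS1 exons and 4.4% of FADS2 exons, so reads there could have been counted to either gene. FADS2 also shares 49 exon bases with FEN1, which rose in all 4 comparisons (0.33, 0.40, 0.52 and 0.57).

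ELOVL6 (ENSG00000170522, chromosome 4, 110045846 to 110199199), which lengthens palmitate to stearate, fell in all 4 comparisons. Its MDA-MB-231 level dropped from 136, 147 and 142 CPM to 111, 112 and 110.4 CPM and from 138, 142 and 137 CPM to 117, 111 and 111 CPM, and that of MDA-MB-436 from 63.1, 62.8 and 67.0 CPM to 38.8, 35.8 and 38.1 CPM and from 71.4, 63.3 and 71.2 CPM to 35.8, 37.5 and 39.8 CPM, in each line for the shRNA label and then the PROTAC. No groups overlapped. These were log2 changes of -0.35 ± 0.042 and -0.30 ± 0.042 (edgeR adjusted p = 0.00013 and 0.000398), then -0.76 ± 0.08 and -0.87 ± 0.081 (edgeR adjusted p = 3.15e-05 and 1.1e-05).

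ELOVL5 (ENSG00000012660, chromosome 6, 53267398 to 53349179), which lengthens polyunsaturated chains, fell in MDA-MB-436 and not in MDA-MB-231. The MDA-MB-436 level dropped from 136, 133 and 137 CPM to 92.8, 95.5 and 104 CPM under the MDM2 shRNA label and from 141, 138 and 140.5 CPM to 96.9, 103 and 109 CPM with the PROTAC, log2 changes of -0.45 ± 0.074 and -0.44 ± 0.074 (edgeR adjusted p = 0.000684 and 0.00076). In MDA-MB-231 it stood at 302, 287 and 298 CPM with non-targeting shRNA and 295, 293 and 296 CPM with the MDM2 shRNA label, overlapping sets with a fold of 0.997 (95% interval 0.938 to 1.06, edgeR adjusted p = 0.953). With DMSO it stood at 286, 299 and 272 CPM and with the PROTAC at 319, 310.1 and 308 CPM. All 3 PROTAC libraries were above the controls, and the rise of 0.13 ± 0.04 passed narrowly (edgeR adjusted p = 0.0426). It no longer passed under 13 of 20 alternatives, among them the removal of non-targeting shRNA replicate 1 or 3, MDM2 shRNA replicate 1 or 3, DMSO replicate 1 or 3, or any PROTAC replicate, where the adjusted p ran from 0.0558 to 0.148.

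ACSL3 (ENSG00000123983, chromosome 2, 222860934 to 222944639), an acyl-CoA synthetase of the endoplasmic reticulum and lipid droplets, was called in 0 of the 4 comparisons. In MDA-MB-231 it was at 117, 135 and 114 CPM against 104, 118 and 104 CPM with the shRNAs and at 117, 132 and 124 CPM against 116, 109 and 120.5 CPM with DMSO and the PROTAC, and both pairs of groups overlapped. In MDA-MB-436 it was at 105, 104 and 109 CPM against 87.1, 79.7 and 87.3 CPM and at 121, 107 and 111 CPM against 84.8, 95.2 and 121 CPM. PROTAC replicate 3 stood above the other PROTAC libraries, level with the highest control. The log2 changes were -0.17 ± 0.078, -0.11 ± 0.078, -0.30 ± 0.12 and -0.17 ± 0.12 (edgeR adjusted p = 0.162, 0.353, 0.0909 and 0.341). Without PROTAC replicate 3 of MDA-MB-436, both comparisons of that line passed, at -0.30 and -0.36 (edgeR adjusted p = 0.00365 and 0.00262), and without PROTAC replicate 1 the shRNA comparison passed at -0.30 (edgeR adjusted p = 0.0423).

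**Figure D2:**
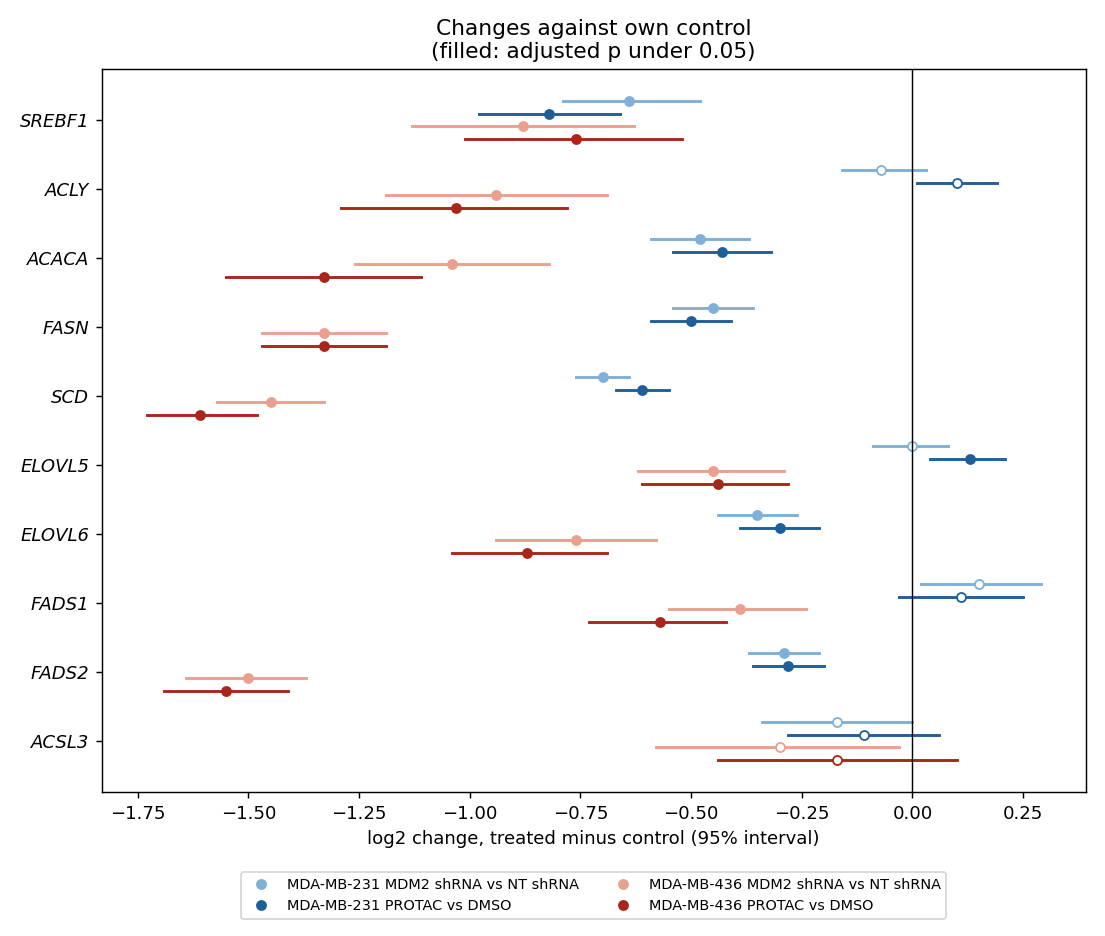
Log2 change of each gene against its own control, treated minus control, on the x axis, with a line for the 95% interval and 1 colour per comparison, filled where the edgeR adjusted p is under 0.05. SREBF1 lies between -0.88 and -0.64 in all 4 comparisons, FADS2 lies at -0.29 and -0.28 in MDA-MB-231 and at -1.50 and -1.55 in MDA-MB-436, and ACSL3 is open throughout.

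The hairpin and the degrader were compared by testing the PROTAC effect minus the shRNA effect within each line. Of the 10 genes 0 differed in either line, where 0.00484% (MDA-MB-231) and 0.00441% (MDA-MB-436) of all genes did, 1 gene in each. In MDA-MB-231 the differences ran from -0.18 ± 0.10 for SREBF1 (95% interval -0.41 to 0.04) to 0.16 ± 0.059 for ACLY (95% interval 0.03 to 0.29). The ACLY, SCD and ELOVL5 differences there had unadjusted p-values of 0.0182, 0.045 and 0.0402, with an edgeR adjusted p of 0.974 for each. In MDA-MB-436 they ran from -0.29 ± 0.14 for ACACA (95% interval -0.60 to 0.02) to 0.13 ± 0.18 for ACSL3 (95% interval -0.25 to 0.52), with a smallest edgeR adjusted p of 0.905. A missed threshold does not show that the treatments act alike, and for FASN in MDA-MB-436 the interval of the difference was -0.20 to 0.20 on the log2 scale.

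Compared directly, the libraries of the hairpin and drug experiments also differed in few genes. DMSO against non-targeting shRNA gave 0 called genes in MDA-MB-231 (edgeR, 903 at an unadjusted p under 0.05) and 4 in MDA-MB-436 (2579 unadjusted), and the PROTAC libraries against those labelled MDM2 shRNA gave 3 and 1 (1113 and 1051 unadjusted). These are 0.0, 0.0176, 0.0145 and 0.00441% of the genes tested. The 10 genes were called in 0 of these comparisons, and their log2 differences ran from -0.08 to 0.05, -0.16 to 0.10, -0.11 to 0.21 and -0.15 to 0.26 for the MDA-MB-231 controls, the MDA-MB-231 treated libraries, the MDA-MB-436 controls and the MDA-MB-436 treated libraries.

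The lines were compared in a fit of all 24 libraries by testing the effect in MDA-MB-436 minus that in MDA-MB-231. With both treatments 8 of the 10 genes differed, all with a lower log2 change in MDA-MB-436. ACLY, ELOVL5 and FADS1 fell only in that line, and in MDA-MB-231 ELOVL5 was called as rising with the PROTAC (0.13). Of 24719 genes, 19.7% differed for the shRNA label (9.77% lower and 9.94% higher in MDA-MB-436) and 22.3% for the PROTAC (10.5% lower and 11.8% higher). FADS2 had log2 differences of -1.23 ± 0.077 and -1.27 ± 0.077 (edgeR adjusted p = 1.15e-09 and 7.38e-10), and ACLY had -0.89 ± 0.13 and -1.13 ± 0.13 (edgeR adjusted p = 3.17e-05 and 1.72e-06). FASN, SCD and ACACA, the synthase, desaturase and carboxylase, differed by -0.90 ± 0.089, -0.77 ± 0.068 and -0.58 ± 0.12 for the shRNA label. SREBF1 did not pass, with -0.26 ± 0.15 (95% interval -0.58 to 0.06, edgeR adjusted p = 0.272) and 0.07 ± 0.15 (95% interval -0.25 to 0.38, edgeR adjusted p = 0.859). ACSL3 did not pass either, with -0.15 ± 0.14 and -0.06 ± 0.14 (edgeR adjusted p = 0.534 and 0.857).

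**Figure D3:**
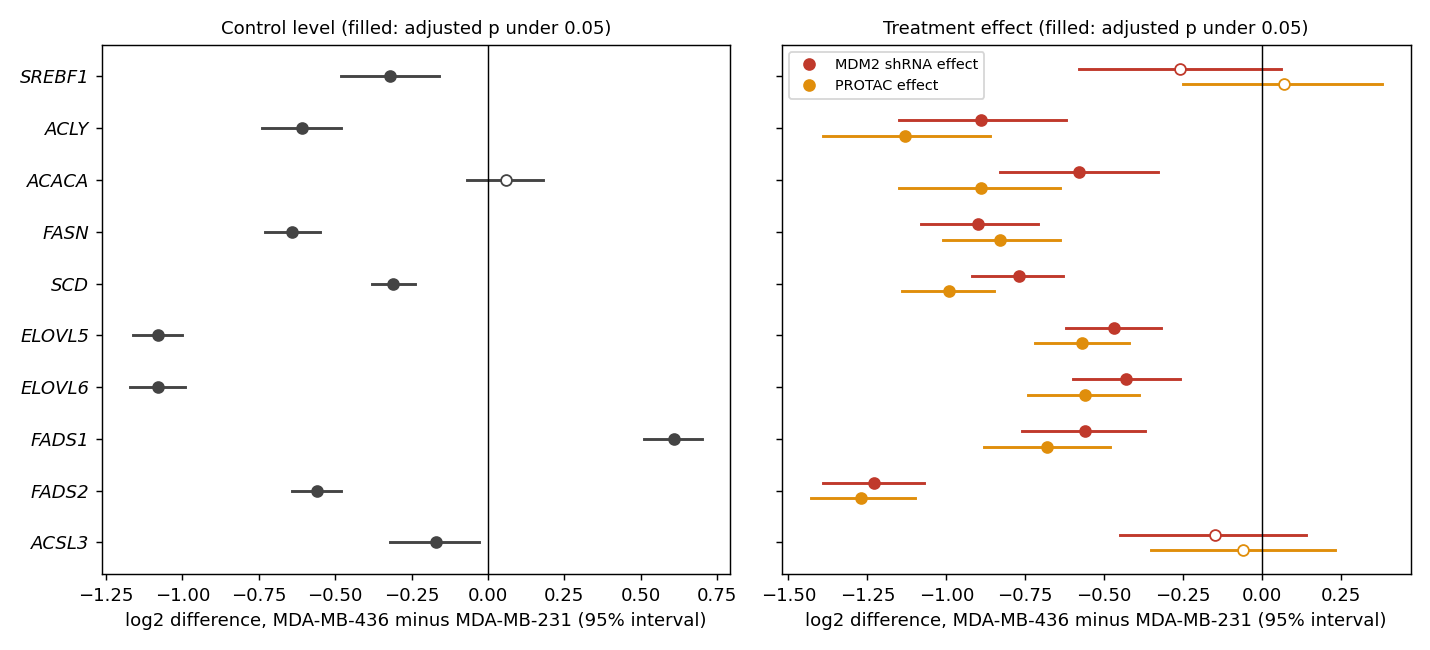
Log2 difference of MDA-MB-436 minus MDA-MB-231 for the mean control level (left) and for each treatment effect (right), with a line for the 95% interval and filled points where the edgeR adjusted p is under 0.05. FADS1 is the only gene at the left with a filled point above 0, and at the right SREBF1 and ACSL3 are open while the other 8 genes are filled and below 0.

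Control levels also differed between the lines for 9 of the 10 genes, where 66.8% of all genes differed (30.9% lower and 35.9% higher in MDA-MB-436). ELOVL5 and ELOVL6 were lower in MDA-MB-436, with log2 differences of -1.08 ± 0.036 and -1.08 ± 0.041 (edgeR adjusted p = 6.49e-16 and 4.4e-15), as were FASN, ACLY and FADS2, with -0.64 ± 0.044, -0.61 ± 0.063 and -0.56 ± 0.038 (edgeR adjusted p = 6.91e-11, 3.19e-08 and 4.9e-11). SREBF1 and SCD were also lower, with -0.32 ± 0.076 and -0.31 ± 0.034 (edgeR adjusted p = 0.000996 and 6.15e-08). FADS1 was higher, with 0.61 ± 0.047 (edgeR adjusted p = 4.36e-10). ACACA did not pass, at 0.06 ± 0.06 (95% interval -0.07 to 0.18, edgeR adjusted p = 0.396). ACSL3 passed narrowly at -0.17 ± 0.07 (edgeR adjusted p = 0.0354) and no longer did without non-targeting shRNA replicate 2 or DMSO replicate 3 of MDA-MB-231, or DMSO replicate 2 or 3 of MDA-MB-436 (edgeR adjusted p from 0.0508 to 0.109).

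Levels between genes were compared as CPM per kb of annotated exon, over the 6 control and the 6 treated libraries of a line. In MDA-MB-231 controls SCD led at 169.6 CPM per kb ± 3.74 (SD), followed by FASN at 97.4 ± 2.48, ACLY at 88.6 ± 4.11 and ELOVL5 at 76.2 ± 2.95, then FADS1 at 29.8 ± 1.62. Lower came FADS2 at 21.2 and ELOVL6 at 19.2, whose ranges overlapped, SREBF1 at 17.3 and ACSL3 at 17.0, which also overlapped, and ACACA at 10.9. In treated MDA-MB-231 libraries SCD was at 108.0 ± 2.41, and ACLY at 89.7 and ELOVL5 at 79.6 stood above FASN at 70.2, with no overlap between these neighbours. In MDA-MB-436 controls SCD was at 137 ± 6.36, FASN at 62.6 and ACLY at 58.0 overlapped, and FADS1 at 45.4 stood above ELOVL5 at 36.1. ACSL3 at 15.1, FADS2 at 14.3 and SREBF1 at 13.9 overlapped in turn, above ACACA at 11.4 and ELOVL6 at 9.11. In treated MDA-MB-436 libraries SCD was at 47.1 ± 2.48, and FADS1 at 32.3 ± 2.73 came next, overlapping ACLY at 29.2 ± 3.68, which overlapped ELOVL5 at 26.3, which overlapped FASN at 24.8. ACSL3 at 12.8 and SREBF1 at 7.83 followed, and ELOVL6 at 5.16, ACACA at 5.00 and FADS2 at 4.95 overlapped at the bottom.

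The wider pathway was read from 7 lists of genes with known roles. List counts and medians below run in the order MDA-MB-231 shRNA label, MDA-MB-231 PROTAC, MDA-MB-436 shRNA label and MDA-MB-436 PROTAC. In that order 11.6, 11.5, 14.4 and 15.1% of all genes tested fell and 11.1, 11.1, 16.0 and 17.3% rose. The counts of each list below are to be read beside these shares, and were not tested against them. Of the genes that control SREBP or act beside it, 2 of 11, 2 of 11, 2 of 12 and 3 of 12 tested fell and 2, 1, 3 and 3 rose, with median log2 changes of -0.13, -0.15, -0.09 and 0.00. SCAP, the escort that carries SREBP to its proteases, fell in MDA-MB-231 with log2 changes of -0.27 ± 0.047 and -0.37 ± 0.047 (edgeR adjusted p = 0.0017 and 0.000186). SREBF2, the sterol-directed relative of SREBF1, fell there with -0.19 ± 0.039 and -0.24 ± 0.039 (edgeR adjusted p = 0.00527 and 0.001). Under the shRNA label the SREBF2 call was lost without scaling (-0.09, edgeR adjusted p = 0.13), and those of SREBF2 and SCAP were lost in the fit of all 24 libraries (edgeR adjusted p = 0.0921 and 0.0686). NR1H3, which encodes LXR alpha, a receptor that activates SREBF1, rose in both lines, with 0.59 ± 0.11 and 0.68 ± 0.11 in MDA-MB-231 and 0.60 ± 0.12 and 0.69 ± 0.13 in MDA-MB-436 and an edgeR adjusted p of at most 0.00333. MBTPS1, which makes the first cut in SREBP, fell in PROTAC-treated MDA-MB-436 at -0.90 ± 0.16 (edgeR adjusted p = 0.00106). MLXIP, a glucose-responsive transcription factor, rose under the MDM2 shRNA label of MDA-MB-436 at 0.37 ± 0.064 (edgeR adjusted p = 0.000983). INSIG1, which holds SCAP back in the endoplasmic reticulum, went in MDA-MB-436 from 81.7, 86.8 and 83.0 CPM with DMSO to 29.9, 33.0 and 28.4 CPM with the PROTAC, with a log2 change of -1.47 ± 0.24 (edgeR adjusted p = 0.000722). Under the MDM2 shRNA label of that line its log2 change was -0.99 ± 0.24 (edgeR adjusted p = 0.00869), with 1 library above the others (28.3, 27.0 and 59.7 CPM). Without DMSO replicate 2 the MDA-MB-231 PROTAC count of this list was 5 in place of 3.

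Of 6 genes that supply acetyl-CoA and NADPH, 2, 3, 4 and 3 fell and 1, 0, 0 and 1 rose, with median log2 changes of -0.15, -0.14, -0.42 and -0.32. IDH1, the cytosolic isocitrate dehydrogenase, went in MDA-MB-436 from 76.6, 65.4 and 87.0 CPM to 29.2, 29.6 and 29.9 CPM with the MDM2 shRNA label and from 73.6, 72.2 and 87.6 CPM to 25.4, 26.3 and 26.5 CPM with the PROTAC. Its log2 changes there were -1.35 ± 0.10 and -1.58 ± 0.10 (edgeR adjusted p = 2.92e-06 and 8.72e-07). ME1, the cytosolic malic enzyme, fell in MDA-MB-436 with -0.78 ± 0.069 and -0.86 ± 0.069, and PGD of the pentose phosphate pathway fell with -0.52 ± 0.061 and -0.50 ± 0.061, with edgeR adjusted p-values of at most 8.32e-05. In MDA-MB-231 IDH1 had -0.28 ± 0.07 and -0.26 ± 0.07 (edgeR adjusted p = 0.0136 and 0.0193) and ME1 had -0.29 ± 0.059 and -0.19 ± 0.059 (edgeR adjusted p = 0.00526 and 0.0431). The MDA-MB-231 calls of IDH1 were lost without scaling (edgeR adjusted p = 0.0789 and 0.0848). Its shRNA call was also lost without MDM2 shRNA replicate 1 (edgeR adjusted p = 0.0538), and its PROTAC call without DMSO replicate 1, PROTAC replicate 1 or PROTAC replicate 3 and in the fit of all 24 libraries (edgeR adjusted p = 0.075, 0.062, 0.0566 and 0.0635). SLC25A1, which exports citrate from mitochondria, had 0.27 ± 0.082 (edgeR adjusted p = 0.0354) with the shRNA label. Within MDA-MB-231 the count of 3 for the shRNA label was 1 without MDM2 shRNA replicate 1, and that of 3 for the PROTAC was 1 without DMSO replicate 1 or 3 or PROTAC replicate 2 or 3 and 0 without PROTAC replicate 1. SLC25A1 was also lost without any 1 non-targeting shRNA replicate or MDM2 shRNA replicate 3, and ME1 with the PROTAC under 14 of its 20 alternatives. The fit of all 24 libraries, the fit without the low-count filter and that of the 6 libraries of the comparison alone lost SLC25A1 too (edgeR adjusted p = 0.179, 0.0695 and 0.0577).

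Of the other genes of synthesis, elongation and desaturation, 2 of 12, 2 of 12, 1 of 13 and 1 of 13 tested fell and 2, 3, 2 and 3 rose, with median log2 changes of 0.09, 0.14, -0.06 and 0.00. ELOVL7, an elongase of long saturated and polyunsaturated chains, rose in all 4 comparisons. Its MDA-MB-436 level climbed from 14.3, 13.8 and 17.0 CPM to 41.0, 41.4 and 46.4 CPM with the MDM2 shRNA label and from 16.6, 16.4 and 19.8 CPM to 46.2, 43.9 and 54.2 CPM with the PROTAC. The log2 changes of ELOVL7 were 1.53 ± 0.13 and 1.45 ± 0.13 (edgeR adjusted p = 5.23e-06 and 7.1e-06), and in MDA-MB-231 they were 0.77 ± 0.13 and 0.84 ± 0.13 (edgeR adjusted p = 0.00149 and 0.000915). ELOVL4, an elongase of very long chains, rose in MDA-MB-436 from a mean of 2.64 CPM with DMSO to 6.56 CPM with the PROTAC, with log2 changes of 1.44 ± 0.19 and 1.31 ± 0.19 (edgeR adjusted p = 0.000153 and 0.000278) for both treatments. ELOVL3, expressed in brown fat and skin glands, rose in MDA-MB-231 from control means of 0.541 and 0.855 CPM, with 1.65 ± 0.24 and 1.37 ± 0.24 (edgeR adjusted p = 0.000545 and 0.00163), and was not called in the fit of all 24 libraries (edgeR adjusted p = 0.056 and 0.11). ELOVL1, which also lengthens very long chains, fell in MDA-MB-231 with -0.29 ± 0.049 and -0.31 ± 0.049 (edgeR adjusted p = 0.00141 and 0.00095) and with the shRNA label in MDA-MB-436 with -0.38 ± 0.083 (edgeR adjusted p = 0.00428). The MDA-MB-436 call of ELOVL1 was lost without scaling (-0.20, edgeR adjusted p = 0.0785). ELOVL2, which lengthens polyunsaturated chains, rose with the PROTAC in MDA-MB-436 at 0.37 ± 0.098 (edgeR adjusted p = 0.0127) and not without DMSO replicate 2 (edgeR adjusted p = 0.0548). The ELOVL2 call was also lost with the 6 libraries alone and in the fit of all 24 libraries (edgeR adjusted p = 0.0623 and 0.479). The MDA-MB-436 PROTAC count of 4 was 2 without DMSO replicate 2, and the shRNA count of 3 was 5 without PROTAC replicate 3.

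Of the genes of fatty acid activation and uptake, 1 of 10, 1 of 10, 4 of 12 and 3 of 12 tested fell and 0, 0, 2 and 0 rose, with median log2 changes of -0.04, -0.08, -0.27 and -0.36. ACSL4, the synthetase that prefers arachidonate, fell in MDA-MB-436 with -0.58 ± 0.11 and -0.70 ± 0.11 (edgeR adjusted p = 0.00185 and 0.000499), and its shRNA value in MDA-MB-231, -0.15 ± 0.053 (edgeR adjusted p = 0.0745), passed only without PROTAC replicate 1. SLC27A5, a bile acid and very long chain synthetase, fell in MDA-MB-436 with -0.67 ± 0.11 and -0.40 ± 0.11 (edgeR adjusted p = 0.000806 and 0.0163), and FABP5, a cytosolic fatty acid carrier, fell with -0.46 ± 0.071 and -0.26 ± 0.071 (edgeR adjusted p = 0.000435 and 0.0151). Without DMSO replicate 2 the PROTAC calls of SLC27A5 and FABP5 were lost (edgeR adjusted p = 0.0628 and 0.06), as was that of SLC27A5 without DMSO replicate 3 (edgeR adjusted p = 0.0583). Both PROTAC calls were also lost without scaling, without the low-count filter and with the 6 libraries alone. SLC27A4, a transporter with synthetase activity, fell in MDA-MB-231 with -0.23 ± 0.051 and -0.28 ± 0.051 (edgeR adjusted p = 0.00807 and 0.00239). Neither SLC27A4 call was kept in the fit of all 24 libraries (edgeR adjusted p = 0.247 and 0.14), nor was the shRNA call without scaling (-0.13, edgeR adjusted p = 0.0934). In that line FABP3 with the shRNA label, at 1.62 ± 0.69 (edgeR adjusted p = 0.122), FABP5 with the PROTAC, at 0.15 ± 0.052 (edgeR adjusted p = 0.0701), and SLC27A1 with the PROTAC, at -0.29 ± 0.17 (edgeR adjusted p = 0.263), did not pass. FABP3 passed without PROTAC replicate 2. Without PROTAC replicate 1 or 2 the MDA-MB-231 shRNA count was 2 in place of 1, and without PROTAC replicate 1 or 3 the MDA-MB-436 PROTAC count was 5 in place of 3.

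Of 16 genes of glycerolipids and lipid droplets, 2, 1, 6 and 7 fell and 4, 3, 4 and 3 rose, with median log2 changes of 0.02, 0.15, -0.26 and -0.22. PNPLA2, the triglyceride lipase of lipid droplets, rose in all 4 comparisons, with 0.41 ± 0.068 and 0.28 ± 0.068 (edgeR adjusted p = 0.00128 and 0.0132) in MDA-MB-231 and 0.54 ± 0.11 and 0.82 ± 0.11 (edgeR adjusted p = 0.00263 and 0.000139) in MDA-MB-436. The PNPLA2 call with the PROTAC in MDA-MB-231 was lost without DMSO replicate 2 (edgeR adjusted p = 0.0629). PNPLA3, a lipid droplet protein related to it, fell in MDA-MB-436 with -0.91 ± 0.15 and -0.96 ± 0.15 (edgeR adjusted p = 0.000601 and 0.000387), as did DGAT1, which makes triglyceride, with -0.42 ± 0.055 and -0.35 ± 0.055 (edgeR adjusted p = 0.000142 and 0.000465). AGPAT4, an acyltransferase of phosphatidic acid synthesis, rose there with 0.76 ± 0.12 and 0.55 ± 0.12 (edgeR adjusted p = 0.000593 and 0.00453). In MDA-MB-231 its relative AGPAT2 rose with 0.37 ± 0.076 and 0.42 ± 0.076 (edgeR adjusted p = 0.005 and 0.00219), PLIN2, a coat protein of lipid droplets, rose with the PROTAC at 0.23 ± 0.044 (edgeR adjusted p = 0.00306), and LPIN2, a phosphatidate phosphatase, fell with the shRNA label at -0.25 ± 0.045 (edgeR adjusted p = 0.00243). In the fit of all 24 libraries the MDA-MB-231 calls of AGPAT2 and LPIN2 with the shRNA label and of PNPLA2 with the PROTAC were lost (edgeR adjusted p = 0.0524, 0.0545 and 0.084). Without DMSO replicate 2 the MDA-MB-231 PROTAC count was 2 in place of 4.

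Of 15 genes of fatty acid oxidation, 1, 1, 3 and 3 fell and 4, 6, 1 and 1 rose, with median log2 changes of 0.14, 0.18, -0.23 and -0.10. CPT1A, which admits fatty acids to mitochondria, fell in all 4 comparisons, with -0.39 ± 0.076 and -0.40 ± 0.076 in MDA-MB-231 and -0.66 ± 0.083 and -0.70 ± 0.083 in MDA-MB-436 and an edgeR adjusted p of at most 0.00335. CPT1C, its brain-enriched relative, rose in MDA-MB-231 with 0.81 ± 0.11 and 0.75 ± 0.11 (edgeR adjusted p = 0.00041 and 0.00072) and with the PROTAC in MDA-MB-436 with 0.53 ± 0.088 (edgeR adjusted p = 0.000675). CPT2, the second carnitine palmitoyltransferase, rose in MDA-MB-231 with 0.40 ± 0.096 and 0.43 ± 0.096 (edgeR adjusted p = 0.0115 and 0.00711), and ACAA2, a thiolase of beta-oxidation, rose there with the PROTAC at 0.44 ± 0.076 (edgeR adjusted p = 0.00176). The CPT2 call for the shRNA label was lost without non-targeting shRNA replicate 1 (edgeR adjusted p = 0.0581). HADHB, a subunit of the trifunctional protein, fell in MDA-MB-436 with -0.35 ± 0.074 and -0.27 ± 0.074 (edgeR adjusted p = 0.0041 and 0.0165), the second lost without DMSO replicate 2 (edgeR adjusted p = 0.0679), and PPARD, a lipid-sensing receptor, fell with the shRNA label at -0.41 ± 0.072 (edgeR adjusted p = 0.00113). Without scaling neither HADHB call was kept (edgeR adjusted p = 0.11 and 0.322). The MDA-MB-231 shRNA count of 5 was 3 without any 1 non-targeting shRNA replicate, MDM2 shRNA replicate 3 or DMSO replicate 2, and the PROTAC count of 7 was 4 without DMSO replicate 2. In MDA-MB-436 the counts of 4 were 7 without PROTAC replicate 3 for the shRNA label and 2 without DMSO replicate 2 for the PROTAC.

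Of 22 genes of sterol synthesis and uptake, the other lipid branch under SREBP control, 6, 5, 12 and 12 fell and 3, 3, 2 and 2 rose, with median log2 changes of 0.03, 0.03, -0.48 and -0.38. FDFT1, squalene synthase, fell in MDA-MB-436 with -0.86 ± 0.065 and -0.81 ± 0.065 (edgeR adjusted p = 2.75e-06 and 3.86e-06). In MDA-MB-231 LSS, lanosterol synthase, fell with -0.35 ± 0.054 and -0.41 ± 0.054 (edgeR adjusted p = 0.000812 and 0.000277) and PMVK, a kinase of the mevalonate pathway, fell with -0.41 ± 0.064 and -0.39 ± 0.064 (edgeR adjusted p = 0.000805 and 0.00127), while IDI1, an isomerase of the same pathway, rose with 0.46 ± 0.049 and 0.56 ± 0.05 (edgeR adjusted p = 5.84e-05 and 1.52e-05). Differences between the lines in these list counts were not tested.

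**Figure D4:**
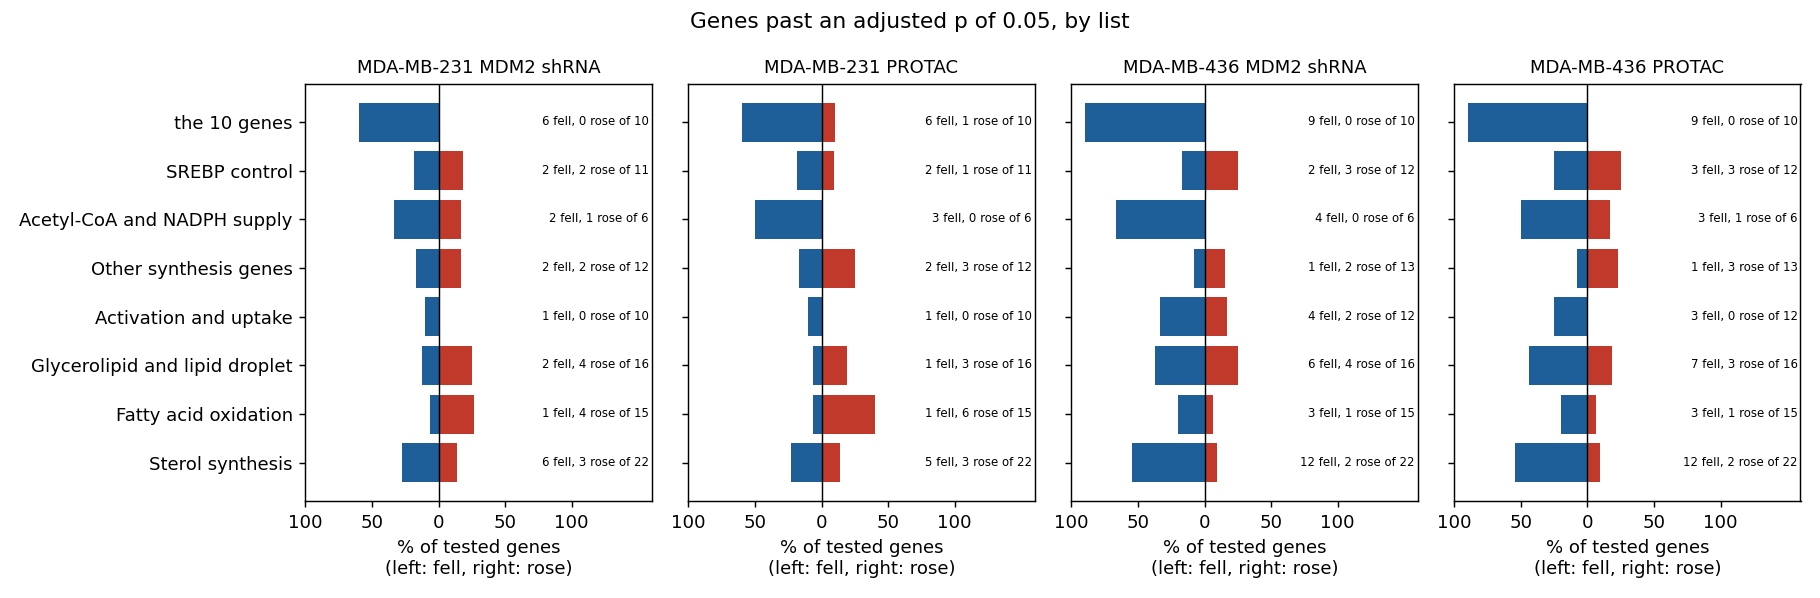
Share of tested genes in each list that fell (blue, left) or rose (red, right) at an edgeR adjusted p under 0.05, 1 panel per comparison, with the counts written at the right. The 10 genes reach 9 of 10 falling in both MDA-MB-436 panels, beside 12 of 22 sterol synthesis genes, and fatty acid oxidation has 4 and 6 rising of 15 in the MDA-MB-231 panels. Of all genes tested, 11.6, 11.5, 14.4 and 15.1% fell and 11.1, 11.1, 16.0 and 17.3% rose (MDA-MB-231 shRNA label and PROTAC, then MDA-MB-436).

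To describe which genes had a pattern like that of SCD and SREBF1, the Euclidean distance over the 4 log2 changes was taken to 8931 genes that code for protein and had a mean of 10 CPM or more. Among the 5 nearest to SCD were LOXL2 (0.17), LAMA5 (0.20), RTN4IP1 (0.26) and NAV1 (0.27). LOXL2, a secreted lysyl oxidase, had log2 changes of -0.73 and -0.70 in MDA-MB-231 and -1.44 and -1.47 in MDA-MB-436. Nearest to SREBF1 were LOXL1 (0.10), CENPA (0.11), PHKB (0.18), XXYLT1 (0.20) and CKS2 (0.20), and none of the 10 neighbours belonged to the lipid lists.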

How the data were processed

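RNA sequencing counts were analysed for 24 libraries, 3 in each of 8 groups named from the labels. Per the labels' protocols, RNA was taken with TRIzol and libraries were made with a NEBNext Ultra II kit. The deposited values were whole-number counts per Ensembl gene for 60675 genes, not normalised. The submitters' processing notes name cutadapt (2.4), HISAT2, StringTie, edgeR and GRCh38 without roles. The counting program, annotation and strand setting are not given in the sources used here. The count 4 was held by 1.2 to 1.64 times as many genes as the mean of 3 and 5, so deposited counts may have been transformed before deposit.

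Of the gene identifiers, 57055 were in GENCODE 29, with 99.93% of counts. Gene coordinates and exon lengths came from that annotation (GRCh38). Each line was fitted alone with edgeR 4.0.16 (R 4.3.3, limma 3.58.1): TMM scaling, filterByExpr, group means over 12 libraries, 8 residual degrees of freedom, quasi-likelihood F test and Benjamini-Hochberg adjustment over 20675 and 22663 genes. Differences between lines and control levels came from 1 fit of all 24 libraries (24719 genes). Levels are CPM with TMM scaling over the 24 libraries. Errors of log2 changes are standard errors, intervals are 95%, and the threshold on the adjusted p was 0.05. Of the wider lists, the 3 genes with the smallest adjusted p in each comparison are named, and some genes this rule or the distance picked are not reported here. The tests were checked on simulated data. Tables and plots used Python 3.11.15, pandas 2.3.3, numpy 2.4.6 and matplotlib 3.10.9.

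The genes and lists were chosen with earlier results of these data known. Alternatives were DESeq2 1.42.0 size factors and test, no scaling, no low-count filter, a replicate block, smaller and larger fits and leaving out each library. Counts divided by 4 and rounded were added after seeing the data. Total counts per library ranged from 33.4 to 174.7 M. Whether replicate numbers pair samples is not stated. Deviations from the group mean, over all genes tested, correlated at -0.05 to 0.06 between treated and control libraries of the same number. Genes with low counts weigh as much as others there, so pairing is not excluded.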

Additional observations from a re-analysis of the deposited data

Results flagged for a closer look

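The effect of each treatment differed between MDA-MB-436 and MDA-MB-231 for 8 of the 10 genes, by a test of the difference itself in the fit of all 24 libraries. Values are log2 differences of the effect in MDA-MB-436 minus that in MDA-MB-231, and all were negative. FADS2, the entry desaturase of polyunsaturated chains, had -1.23 for the shRNA label and -1.27 for the PROTAC (edgeR adjusted p = 1.15e-09 and 7.38e-10). ACLY, which makes acetyl-CoA, had -0.89 for the shRNA label and -1.13 for the PROTAC (edgeR adjusted p = 3.17e-05 and 1.72e-06). SCD, the desaturase of saturated chains, had -0.77 for the shRNA label and -0.99 for the PROTAC (edgeR adjusted p = 9.06e-08 and 3.18e-09). ACACA, the carboxylase, had -0.58 for the shRNA label and -0.89 for the PROTAC (edgeR adjusted p = 0.00142 and 1.5e-05). FASN, the synthase, had -0.90 for the shRNA label and -0.83 for the PROTAC (edgeR adjusted p = 4.49e-07 and 1.1e-06). FADS1, the later polyunsaturated desaturase, had -0.56 for the shRNA label and -0.68 for the PROTAC (edgeR adjusted p = 0.000194 and 2.13e-05). ELOVL5, an elongase of polyunsaturated chains, had -0.47 for the shRNA label and -0.57 for the PROTAC (edgeR adjusted p = 8.35e-05 and 7.96e-06). ELOVL6, an elongase of palmitate, had -0.43 for the shRNA label and -0.56 for the PROTAC (edgeR adjusted p = 0.000702 and 3.45e-05). Across all genes 19.7 and 22.3% differed in either direction. Groups of 3 libraries were not tested for single outlying libraries.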

How the results depend on the processing

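Of 1700 values of the 10 genes under the alternatives, 1667 kept their direction and their side of the threshold. The number of the 10 genes called lay between 6 and 7 (MDA-MB-231 shRNA label), 6 and 9 (MDA-MB-231 PROTAC), and 9 and 10 (both comparisons of MDA-MB-436), and 8 genes differed between the lines under each alternative run. Values near 0 changed sign: ACLY with the MDA-MB-231 shRNA label was 0.03 and ELOVL5 was 0.10 without scaling, and leaving out 1 library at a time gave ELOVL5 values from -0.03 to 0.00. The PROTAC difference between the lines was 0.03 for ACSL3 without scaling. With 1 library left out it ran from -0.22 to 0.05 for ACSL3, and without MDA-MB-436 PROTAC replicate 1 it was -0.07 for SREBF1. Scaling mattered most for the direction of all calls. Without it the share of higher calls went from 48.8 to 68.0%, 49.1 to 65.6%, 52.5 to 72.8% and 53.4 to 70.9% (MDA-MB-231 shRNA label and PROTAC, then MDA-MB-436), and the median of all genes from 0.01 to 0.11, -0.01 to 0.08, 0.04 to 0.22 and 0.04 to 0.21, while SREBF1, ACACA, FASN, SCD, ELOVL6 and FADS2 stayed called as falling in all 4 comparisons.

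With the replicate number as a block, 6 of the 10 genes were called in each MDA-MB-231 comparison (ELOVL5 was lost, edgeR adjusted p = 0.0647) and 9 in each MDA-MB-436 comparison. The same block gave 0 and 0 differences between PROTAC and shRNA, and 8, 8 and 9 of the 10 genes differed between the lines in shRNA effect, PROTAC effect and control level. Whether these numbers mark a shared culture or day is not stated.

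Of the list counts under the alternatives, 516 stayed within 1.5 times and 44 moved further. In the fit of all 24 libraries, in MDA-MB-231 with the PROTAC, acetyl-CoA and NADPH supply went from 3 to 1, activation and uptake from 1 to 0, glycerolipids from 4 to 2 and oxidation from 7 to 4. With the shRNA label SREBP control went from 4 to 1, activation and uptake from 1 to 0, glycerolipids from 6 to 3 and oxidation from 5 to 3. Activation and uptake with the PROTAC in MDA-MB-436 went from 3 to 5 in that fit and with DESeq2, and to 1 without the low-count filter and with the 6 libraries alone. Without scaling, acetyl-CoA and NADPH supply (MDA-MB-231 PROTAC) went from 3 to 0, activation and uptake there from 1 to 2 (also with DESeq2), other synthesis genes (MDA-MB-231 shRNA label) from 4 to 7 and oxidation there from 5 to 8. Oxidation was 3 there without the low-count filter. With the 6 libraries alone, other synthesis genes in MDA-MB-436 went from 4 to 2 (PROTAC) and from 3 to 5 (shRNA label), and oxidation with the shRNA label from 4 to 8 (7 with DESeq2). The cause was not tested.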

Other observations

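INSIG1, which holds the SREBP escort SCAP in the endoplasmic reticulum, split within groups of MDA-MB-231. It was at 69.6, 154 and 68.7 CPM with non-targeting shRNA, and at 50.1, 61.4 and 57.5 CPM with the MDM2 shRNA label. With DMSO it was at 67.8, 69.7 and 153 CPM, and with the PROTAC at 112, 51.6 and 54.9 CPM. One library in each of 3 groups thus stood well above its partners, and the libraries had different replicate numbers. SREBF1 in those libraries was at 134, 146 and 76.5 CPM.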
